A study of Mus musculus with 12 samples.

Results

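DNA methylation at CpG islands was set against the age of the mtDNA divergence in 4 mouse ES cell lines, over all 12 arrays of the 12 in the series. The log2 ratio of IP over input of each probe was regressed on the time since the mtDNA of a line diverged from that of *Mus musculus*. CC9 mus was placed at 0 Mya, CC9 spretus at 1.82, CC9 dunni at 3.88 and CC9 pahari at 6.44. The regression was repeated on the 9 arrays of the 3 divergent lines, with the scan period of the array as a block, so that its slopes do not rest on CC9 mus.

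The nucleus of each line came from CC9.3.1 ES cells without mtDNA of their own, and its mtDNA from a donor cell whose nucleus had been removed. The donors were *M. musculus*, *M. spretus*, *M. dunni* and *M. pahari*. All 4 therefore carry the CC9 chromosomes, and CC9 mus has the mtDNA type of the parental cells. Each haplotype is represented by a single line with 3 arrays, so line and haplotype cannot be told apart. Cells were grown for 48 h without feeders before DNA was taken. The labels do not state whether the replicates were separate cultures, and p-values therefore measure the spread between these samples only. Replicates 1 and 2 of CC9 dunni shared a slide, as did those of CC9 pahari and of CC9 mus. Over all probes the log2 ratios had r = 0.934 within this pair of CC9 dunni and 0.932 within that of CC9 pahari, against 0.802 to 0.808 between either array and replicate 3 of its line. Within the pair of CC9 mus r was 0.784, against 0.667 and 0.810 between replicates 1 and 2 and its replicate 3. With slide as a random block the consensus correlation over the 9 arrays was 0.43, so the arrays of the 9-array and earlier-period fits do not count as fully separate samples. IP DNA carried Cy5 and input DNA Cy3 on every array, without dye swap. Between 75.2% and 98.6% of the probes of an array had an IP signal well above their background, and the precision of a slope is limited by how few arrays there were.

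CpG islands are short stretches rich in CpG that lie at the promoters of many genes and are mostly free of methylation in ES cells. In MeDIP, an antibody to 5mC pulls down methylated fragments, so the ratio of IP over input rises with the amount of methylated CpG around a probe. The mtDNA encodes subunits of the electron transfer chain, whose activity is tied to the TCA cycle and to *α*-ketoglutarate, a cofactor of the TET enzymes that oxidise 5mC.

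No probe had a slope past the threshold over the 12 arrays. In limma, 0 of 88737 probes (0%) had an adjusted p under 0.05, and the smallest adjusted p was 0.238. An unadjusted p under 0.05 was found for 14739 probes (16.6%), of which 7948 (8.96%) had a positive and 6791 (7.65%) a negative slope. The median slope of all probes was 0.02 log2 units per My, the unit of divergence time, and percentiles 5 and 95 lay at −0.23 and 0.18. The counts rested on CC9 mus in particular. Without its replicate 1, which had the narrowest log2 ratios of all arrays, 33 probes passed, all of them with negative slopes, and 24419 had an unadjusted p under 0.05. This last count was 8674 without replicate 2 and 9061 without replicate 3. With arrays weighted by their scatter, 277 probes passed, 190 upwards and 87 downwards. The share of positive slopes among the probes with an unadjusted p under 0.05 was 53.9%, but 41.9% after normexp background correction and 68.0% with scan period as a block. All CC9 mus arrays were scanned on a day of their own, so this day and a divergence of 0 cannot be told apart.

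The 4 line means lay in the order of divergence at 3264 of the 7948 probes with positive slopes (41.1%) and at 2265 of the 6791 with negative slopes (33.4%). Over all probes the means rose at each step at 8032 (9.05%) and fell at each step at 4296 (4.84%). At the other probes with a slope, at least 1 step went against it. Departure from a straight line was tested separately with the moderated F test of limma. It passed at 0 of 88737 probes (0%), with an unadjusted p under 0.05 at 5153 (5.81%). Without CC9 mus replicate 1, 4815 probes departed from the line, and 1758 did so with array weights.

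Since none passed, the probes with the smallest p in each direction are described, 8 loci each way. At all 8 each way the 4 line means lay in order of divergence, though this was not a condition of the choice. None of their values passed the correction for multiple tests. The 8 with negative slopes ran from −0.94 to −0.32 log2 units per My. At 4 of them at least 50% of the probes of the locus had an unadjusted p under 0.05, and these loci had the largest slopes. A locus joins neighbouring probes that are no more than 1000 bp apart. All positions are on mm9, and the files used here give no gene names for the probes.

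The probe at chr11:22872152-22872201 (A_68_P27643656) had log2 ratios of 2.25, 5.68 and 6.0 for the 3 CC9 mus arrays, 1.99, 3.74 and 3.61 for CC9 spretus, −0.53, 0.49 and −0.54 for CC9 dunni and then −1.92, −1.0 and −0.27 for CC9 pahari. The ratios of CC9 dunni and CC9 pahari lay below all those of the other lines, and those of CC9 mus and CC9 spretus overlapped. The slope was −0.94 ± 0.14 (SE) over the 12 arrays (limma, adjusted p = 0.238) and −0.88 ± 0.16 over the 9 (adjusted p = 0.123). All 9 probes of the locus had negative slopes with an unadjusted p under 0.05 in both fits. On 2 of the 3 CC9 pahari arrays and 1 of the 3 CC9 dunni arrays the IP signal was not well above background, so these values are upper bounds, which the slope takes as values.

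The probe at chr7:6682111-6682162 (A_68_P24956657) gave 1.72, 4.25 and 4.05 for the 3 CC9 mus arrays, 1.98, 4.29 and 1.39 for CC9 spretus, 0.77, 1.26 and −0.36 for CC9 dunni and then −1.15, −1.04 and −1.24 for CC9 pahari. The 3 CC9 pahari values were the lowest and were not well above background in the IP channel, so they are upper bounds. CC9 dunni lay between them and the other lines, again with overlap between CC9 mus and CC9 spretus. The slope was −0.72 ± 0.11 (limma, adjusted p = 0.238) with the upper bounds taken as values, and all 9 probes of the locus followed it with an unadjusted p under 0.05.

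At chr12:110766379-110766427 the ratios were 3.89, 7.73 and 7.34 for the 3 CC9 mus arrays, 2.45, 3.43 and 2.78 for CC9 spretus, 1.32, 0.84 and −0.37 for CC9 dunni and then −0.31, −0.01 and 0.94 for CC9 pahari. CC9 mus was above CC9 spretus, and CC9 spretus above the other lines, without overlap, while CC9 dunni and CC9 pahari overlapped. The slope was −0.93 ± 0.16 over the 12 arrays (limma, adjusted p = 0.24) and −0.56 ± 0.13 over the 9 (adjusted p = 0.229), and all 4 probes of the locus followed it. The probe at chr17:12934351-12934395 gave 1.53, 4.33 and 6.34 for the 3 CC9 mus arrays, 1.84, 3.87 and 1.85 for CC9 spretus, 1.32, 1.41 and −0.02 for CC9 dunni and then −0.54, −1.34 and −0.97 for CC9 pahari. There the 3 divergent lines did not overlap, and the range of CC9 mus spanned that of CC9 spretus. The slope was −0.78 ± 0.13 (limma, adjusted p = 0.24), shared by all 10 probes of the locus.

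The other 4 negative slopes were smaller, from −0.38 to −0.32, and belonged to the probes starting at chr15:100884392, chr13:120277029, chr5:111848921 and chr18:80560292. Their CC9 mus means were between 1.42 and 1.93 and their CC9 pahari means between −1.05 and −0.28. At those on chromosomes 13 and 18 only 1 of the 3 CC9 pahari arrays had an IP signal well above background, and at the probes on chromosomes 12 and 17 described before, 2 of 3, so these low values are in part near the limit of the assay. Fewer of their neighbours took part, with 5 of 12, 1 of 3, 8 of 33 and 3 of 9 probes of the locus at an unadjusted p under 0.05. At 7 of the 8 probes with negative slopes, the slope of the IP signal was larger than that of the input signal.

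The 8 positive slopes ran from 0.22 to 0.51. In their loci 16 of 62 probes had an unadjusted p under 0.05, and in the loci with negative slopes 49 of 89. The 8 probes chosen for their p are part of each count, and the share over all probes was 16.6%. The largest, at chr12:25365989-25366033, went with ratios of −1.60, −2.83 and −2.09 for the 3 CC9 mus arrays, 0.52, −0.84 and −0.61 for CC9 spretus, 0.66, 0.52 and 0.65 for CC9 dunni and then 1.81, 1.83 and 0.07 for CC9 pahari. CC9 mus stood below all other arrays, whereas CC9 pahari replicate 3 fell among the values of CC9 spretus and below CC9 dunni. Its slope was 0.51 ± 0.09 (limma, adjusted p = 0.24), with 2 of the 5 probes of the locus at an unadjusted p under 0.05. The probe at chr1:54983378-54983422 (A_68_P20239578) gave −0.64, −1.60 and −0.97 for the 3 CC9 mus arrays, 0.66, −0.08 and −0.32 for CC9 spretus, 0.55, 0.58 and 0.07 for CC9 dunni and then 2.53, 2.35 and 0.96 for CC9 pahari. CC9 mus was lowest and CC9 pahari highest without overlap, and the lines between them overlapped. Its slope was 0.44 ± 0.07 over the 12 arrays (limma, adjusted p = 0.238) and 0.41 ± 0.07 over the 9 (adjusted p = 0.108).

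The other 6 started at chr6:53237789, chr17:49754374, chr7:140900786, chr6:94232767, chr6:114232614 and chr18:20717050. The numbers of probes of the locus at an unadjusted p under 0.05 were 1 of 12, 2 of 3, 1 of 8, 4 of 18, 1 of 5 and 2 of 5. The IP signal had a larger slope than the input signal at 2 of the 8 probes only, so that at 6 the ratio moved more with a falling input signal. Of the 8, 3 lie on chromosome 6, where the input signal was raised in all 3 CC9 mus arrays, at 0.28, 0.30 and 0.33, and lay between −0.14 and −0.07 on the other 9. Its slope over the 12 arrays, −0.053, was the largest in size of all chromosomes. There 11.4% of the probes had a positive slope at an unadjusted p under 0.05, the highest share, and 8.69% a negative one. Over all probes the negative share was 7.65%. Chromosome X had 11.3% positive slopes with an input slope of −0.003. The part of the input signal in the slopes of the 8 probes was not tested further. At the last of these probes, only 1 array of the 12 had an IP signal well above background and 6 an input signal, and at chr6:94232767 these numbers were 5 and 8, so their ratios are poorly measured.

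Over the 9 arrays of the divergent lines with scan period as a block, again no single probe passed. In limma, 0 of 88737 probes (0%) had an adjusted p under 0.05, with a smallest adjusted p of 0.0897. An unadjusted p under 0.05 was found for 8251 probes (9.3%), 4211 upwards (4.75%) and 4040 downwards (4.55%). This count was 5097 without CC9 pahari replicate 1, and the upward count was 2552 without its replicate 2 and 6654 without its replicate 3. The share of positive slopes was 51.0% and moved with the scale of the arrays, to 35.2% without centring and to 65.9% with arrays of equal spread. Among probes with signal well above background in both channels on all arrays, 269 of 59122 passed, 53 upwards and 216 downwards, while 73 of all probes passed after normexp correction and 206 with array weights. Of the 14739 probes with an unadjusted p under 0.05 over the 12 arrays, 2733 (18.5%) also had one over the 9 with the same direction, 1455 upwards and 1278 downwards, and 1 with the opposite direction. Both fits share the 9 arrays, so such overlap is in part built in.

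The 6 probes with the smallest p and a negative slope over the 9 arrays did not pass (limma, adjusted p = 0.0897 for each). At chr18:37881660-37881706 the ratios were 4.16, 4.86 and 4.50 for the 3 CC9 spretus arrays, 2.99, 3.04 and 3.51 for CC9 dunni and then 2.07, 1.91 and 2.44 for CC9 pahari, and the lines did not overlap. CC9 mus, at 1.13, 4.16 and 3.90, ran from below CC9 pahari up to the lowest CC9 spretus array. The slope was −0.51 ± 0.05 over the 9 arrays and −0.21 ± 0.12 over the 12. The others, starting at chr11:60290284, chr2:129513794, chr10:79803817, chr11:116083736 and chr3:96278804, had slopes of −0.43 to −0.32 over the 9 arrays. CC9 mus had a lower mean than CC9 spretus at all 6, and in their loci 31 of 39 probes, the 6 chosen ones included, had an unadjusted p under 0.05, beside 9.3% of all probes.

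The 6 positive slopes of the 9 arrays (limma, adjusted p = 0.0897 for each) lay between 0.25 and 0.40. The probe at chrX:120217471-120217515 gave 4.32, 4.78 and 2.78 for the 3 CC9 spretus arrays, 5.06, 5.20 and 3.60 for CC9 dunni and then 5.96, 6.0 and 4.42 for CC9 pahari, with 0.76, 3.40 and 3.91 in CC9 mus. The lines overlapped here because replicate 3, scanned in the later period, was lower in each divergent line. Within each period the order followed divergence. The slope was 0.32 ± 0.04, and all 5 probes of the locus had an unadjusted p under 0.05. The others started at chr5:125342757, chr6:114232614, chr1:162125324, chr1:172995959 and chr11:95448158. That on chromosome 6 was also among the 8 of the 12-array fit. That on chromosome 5 was not well above background in the IP channel on any array. In the loci of these 6 probes with positive slopes, 14 of 48 probes, the 6 chosen ones included, had an unadjusted p under 0.05, beside 9.3% of all probes. At 3 of these loci the chosen probe alone had one. Of the 12 probes of the 9-array fit, 11 could be tested with both channels well above background and all 11 passed there, as did all 12 with array weights. After normexp correction 3 of the 12 passed. With arrays of equal spread, with slide as a random block and with each array left out in turn, 0 passed. The 12 were chosen for their small p on these same arrays, so these counts are no separate evidence for their slopes. None of the 27 probes named from both fits changed the sign of its slope under any setting run, but slopes became smaller after normexp correction. Those of the first probes named on chromosomes 11 and 7 went from −0.94 and −0.72 over the 12 arrays to −0.34 and −0.29. Others were close to 0 after it, with the rising slopes at chr18:20717050, chr17:49754374 and chr6:94232767 at 0.02, 0.04 and 0.04 and the falling one at chr13:120277029 at −0.06.

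Averaging the probes of a locus showed more. Over the 9 arrays, 67 of 14587 loci (0.459%) had a slope past the threshold (limma, smallest adjusted p = 0.00459), of which 58 fell and 9 rose with divergence. Over all loci the balance was the other way, with 66.1% of slopes above 0 and a median slope of 0.02. The falling loci had a median slope of −0.26 log2 units per My and the rising ones 0.25. The falling loci had a median log2 ratio of 2.95 over the 9 arrays, against −0.03 for all loci. Ratios of different probes also depend on their CpG density and response, which were not corrected for, so levels are compared here as ratios only. They lay on every autosome except chromosome 6, and on chromosome X, with at most 8 on any. At 65 of the 67 the IP signal had a larger slope than the input signal.

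The number of loci depended on single arrays and on the scale. It was 0 without CC9 pahari replicate 2, 4 without its replicate 1 and 7 without CC9 spretus replicate 3. With slide as a random block it was 15, without the scan period block 2, and with arrays of equal spread 0. With the replicate number as a block it was 26. Higher counts were found with array weights, at 194, without centring, at 149, and without CC9 dunni replicate 3, at 91. With slide as a random block and without the scan period block, all that passed were falling and none rising. After normexp correction 38 loci passed, only 10 of them among the 67. All 67 kept the sign of their slope under each of these settings, but the size changed. The 6 largest falls, −0.80 to −0.53, became −0.45 to −0.28 after normexp correction, and the 2 largest rises, 0.51 and 0.47, became 0.51 and 0.45. None of these 8 passed there. With arrays of equal spread the slopes were no smaller at these falls, at −0.86 to −0.57, and were 0.51 and 0.46 at these rises, so there the calls were lost without a loss of slope. Over the 12 arrays, 0 of 14587 locus means (0%) passed in limma, with an unadjusted p under 0.05 at 3051, and 3 passed without CC9 mus replicate 1.

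The largest falls and rises among the 67, chosen after their values were seen, are described by the mean over the probes of the locus. At chr11:22872000-22873052 (9 probes) the values were 2.26, 4.02 and 3.63 for the 3 CC9 spretus arrays, 1.42, 1.57 and −0.14 for CC9 dunni and then −0.44, −0.90 and 0.00 for CC9 pahari. CC9 mus gave 2.07, 5.33 and 6.56. CC9 spretus lay above both other divergent lines on every array, and the lowest CC9 dunni array overlapped CC9 pahari. The slope was −0.80 ± 0.13 (limma, adjusted p = 0.0326), and −0.82 ± 0.13 over the 12 arrays (adjusted p = 0.226). Within the locus, the probes had slopes of −1.12 to −0.30. The nearest loci on either side, 111191 bp and 8829 bp away, had slopes of 0.05 and 0.00.

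At chr7:6682111-6683212 (9 probes) the values were 2.34, 4.24 and 1.94 for the 3 CC9 spretus arrays, 1.59, 1.60 and 0.11 for CC9 dunni and then −0.32, −0.39 and −0.38 for CC9 pahari, with 1.81, 4.27 and 5.91 in CC9 mus. The 3 divergent lines did not overlap, and CC9 pahari lay close to the median of its arrays. Of the 27 CC9 pahari spots, 20 had an IP signal well above background here, 17 of 27 at the locus on chromosome 11 and 24 of 30 at the next one, on chromosome 17, so the slopes rest in part on values near the lower limit. The slope was −0.69 ± 0.10 (limma, adjusted p = 0.0228) and differed little over the 12 arrays, at −0.69 ± 0.12 (adjusted p = 0.226). The neighbouring loci had slopes of −0.01 and −0.04.

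The locus at chr17:12934260-12935460 (10 probes) had means of 4.00 ± 2.38 for CC9 mus, 2.60 ± 1.11 for CC9 spretus, 1.34 ± 0.84 for CC9 dunni and then −0.05 ± 0.03 for CC9 pahari (SD, n = 3). Its slope was −0.57 ± 0.09 (limma, adjusted p = 0.0339). At chr10:12810275-12811158 (7 probes) the means were 4.14 ± 2.05, 2.86 ± 0.84, 2.01 ± 0.69 and 0.45 ± 0.27 in the same order of lines, with a slope of −0.53 ± 0.08 (limma, adjusted p = 0.0326). In these 4 loci CC9 mus had the highest mean and the widest spread, with replicate 1 the lowest of its 3 arrays.

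At chr2:174122729-174126550, the longest of these loci with 24 probes, the divergent lines had means of 3.14 ± 1.12, 1.73 ± 0.99 and 0.11 ± 0.15, but CC9 mus had 0.79 ± 0.82. All 24 probes had negative slopes with an unadjusted p under 0.05 over the 9 arrays, and 2 did over the 12. The slope was −0.65 ± 0.10 over the 9 arrays (limma, adjusted p = 0.0301) and −0.19 ± 0.15 over the 12 (adjusted p = 0.414). At chr7:135831552-135832148 (6 probes) the means of the divergent lines were 2.94 ± 1.53, 1.32 ± 0.32 and −0.03 ± 0.13, with 1.87 ± 1.91 in CC9 mus, and the slope was −0.64 ± 0.10 (limma, adjusted p = 0.0349). The line with the mtDNA of *M. musculus* thus did not continue the order at these loci.

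Over the 58 falling loci CC9 mus had a median of 2.77, CC9 spretus 3.55, CC9 dunni 3.02 and CC9 pahari 2.28. CC9 mus had a higher mean than CC9 spretus at 6 of the 58, or at 25 when its replicate 1 was left out. Since these loci were chosen over the divergent lines, a high CC9 spretus value is favoured, and the counts do not show how CC9 mus relates to the fall.

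The largest rise was on chromosome 17, in a pair of neighbouring loci 1786 bp apart. At chr17:39980411-39983633 (19 probes) the values were 2.97, 4.29 and 1.93 for the 3 CC9 spretus arrays, 4.86, 4.95 and 3.53 for CC9 dunni and then 5.49, 5.48 and 4.76 for CC9 pahari, with 0.80, 2.94 and 6.0 in CC9 mus. CC9 pahari lay above CC9 spretus on every array, and CC9 mus spanned more than the range of the others. The slope was 0.47 ± 0.07 (limma, adjusted p = 0.0326), and all 19 probes had positive slopes with an unadjusted p under 0.05. The input signal had a slope of −0.23 there and the IP signal one of 0.24, so that about as much of the rise in the ratio came with a lower input as with a higher IP signal. Whether these probes match other places in the genome, such as repeats, was not tested. The locus at chr17:39985419-39985625 (2 probes) had a slope of 0.51 ± 0.08 (adjusted p = 0.0349). The other rising loci had 5 probes or fewer. Among them, chrX:120216918-120217515 had a mean of 3.26 in CC9 mus and of 3.79, 3.98 and 4.91 in the divergent lines in order, and a slope of 0.25 ± 0.04 (adjusted p = 0.0294).

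**Figure D1:**
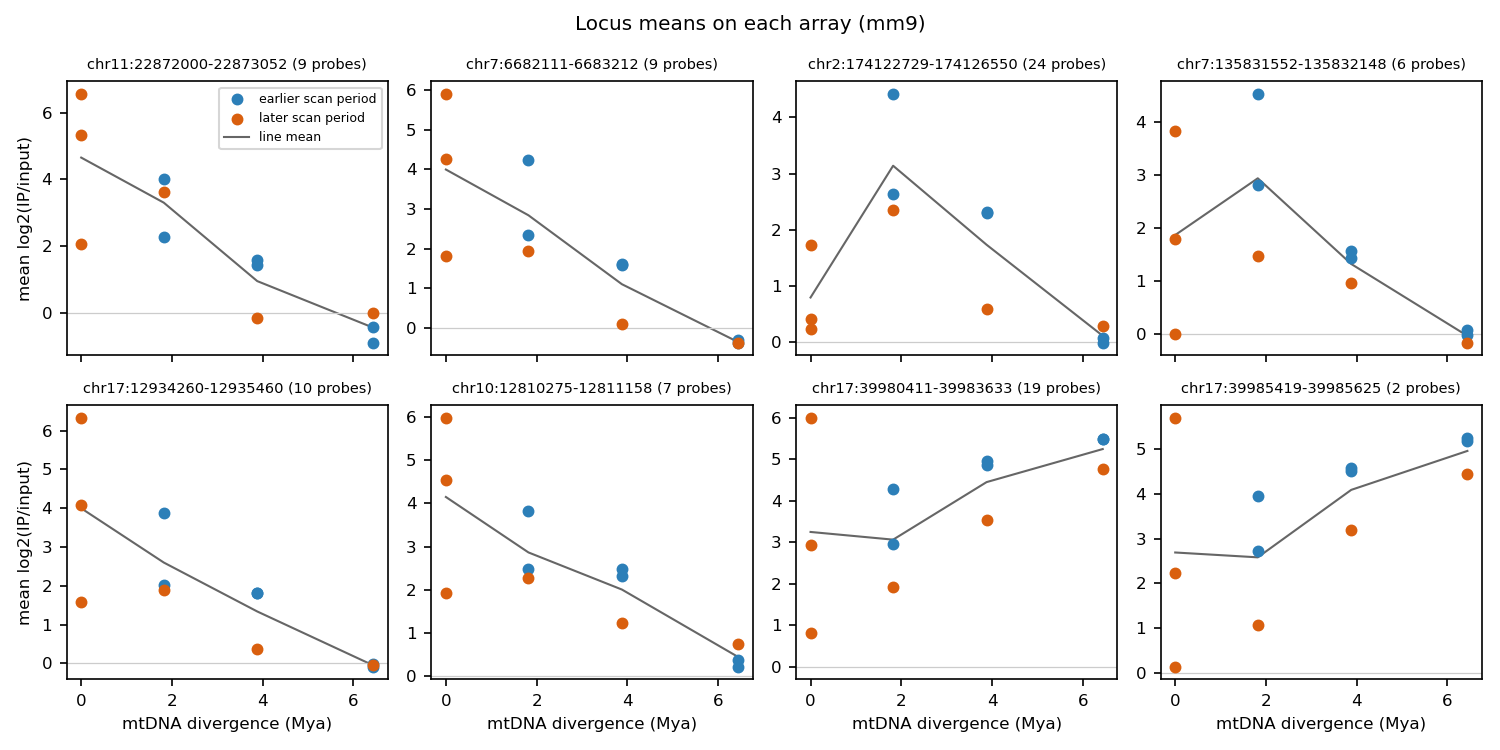
Mean log2 ratio of IP over input of 8 loci on each of the 12 arrays (points, coloured by scan period) against the mtDNA divergence of the line in Mya, with the mean of each line (grey line). The first 6 panels are the largest falls and the last 2 the largest rises among the 67 loci past the threshold over the 9 arrays of the divergent lines. CC9 pahari, at 6.44 Mya, is the lowest divergent line in the falling loci and the highest in the rising ones, whereas the 3 CC9 mus arrays at 0 Mya are widely spread.

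The 2 scan periods share no array, so the slope among the divergent lines was measured separately in each. The earlier period held replicates 1 and 2 of the divergent lines and the later period replicate 3, which makes the later slope one of 3 single arrays. The replicates 3 were all scanned on the same day, with those of CC9 spretus and CC9 dunni on the same slide (r = 0.912 over all probes) and that of CC9 pahari on another, so slide and divergence cannot be fully told apart there. In the earlier period CC9 spretus was scanned on other days than CC9 dunni and CC9 pahari. Across 14580 loci, which are not independent replicates, the earlier and later slopes had r = 0.31 and the same sign at 57.4%. Of the 646 loci with a negative earlier slope at an unadjusted p under 0.05, 525 (81.3%) were negative in the later period too, with a median slope of −0.14 in the earlier and −0.11 in the later. Of the 1935 with a positive one, 58.2% were positive in the later period, and the median slope was 0.11 in the earlier and 0.01 in the later. Whether these shares differ was not tested. Of all loci with at least 2 probes, 48.6% had a negative later slope.

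The 10 most negative earlier slopes among 14229 loci of at least 2 probes, a number chosen after the values were seen, ran from −0.83 to −0.63. All 10 loci had negative slopes in the later period, from −0.75 to −0.24. They were the 6 falling loci described above and those at chr7:150481208-150482535, chr2:157385700-157386395, chr12:110766379-110766726 and chr6:58856617-58857246. These 4 did not pass over the 9 arrays (limma, adjusted p = 0.152, 0.0619, 0.115 and 0.0809). In all 10, CC9 spretus was enriched, with means of 2.60 to 3.30, and CC9 pahari was not, with means of −0.45 to 0.45. These means include the earlier arrays by which the loci were ranked, so a high CC9 spretus and a low CC9 pahari value are favoured by the choice. CC9 dunni ranged from −0.21 to 2.33. CC9 mus ranged most, from −0.24 at chr7:150481208-150482535 to 6.04 at chr12:110766379-110766726. The 4 line means lay in order of divergence at 6 of the 10. At chr7:150481208-150482535 CC9 spretus alone was high, with a mean of 3.30 against −0.21 in CC9 dunni and −0.15 in CC9 pahari. The next in the ranking, chr11:11925467-11926345, had slopes of −0.62 and −0.42.

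Such a contrast was rare. Of 935 loci of at least 2 probes with a CC9 spretus mean above 2, the CC9 pahari mean was below 1 at 17, which included these 10. These limits of 2 and 1 were not planned, and the 10 had been ranked on part of the same arrays, so the count is a description only. A negative later slope was not rare among loci of high ratio. Of the 897 with a mean above 2 over the 9 arrays, 80.2% had one. The level of the 646 loci behind the 81.3% given above was not compared with this. Whether that share went with level was therefore not tested. The median later slope of the 897 was −0.16, and 348 of them had a later slope of −0.24 or lower. Of all 14229 loci of at least 2 probes, 468 had one this low. The 10 loci described above had means below 2 over the 9 arrays and are not among the 897. In the earlier period 68.1% of the 897 had a negative slope, with a median of −0.06. Of the 10 most positive earlier slopes, 8 were positive in the later period.

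**Figure D2:**
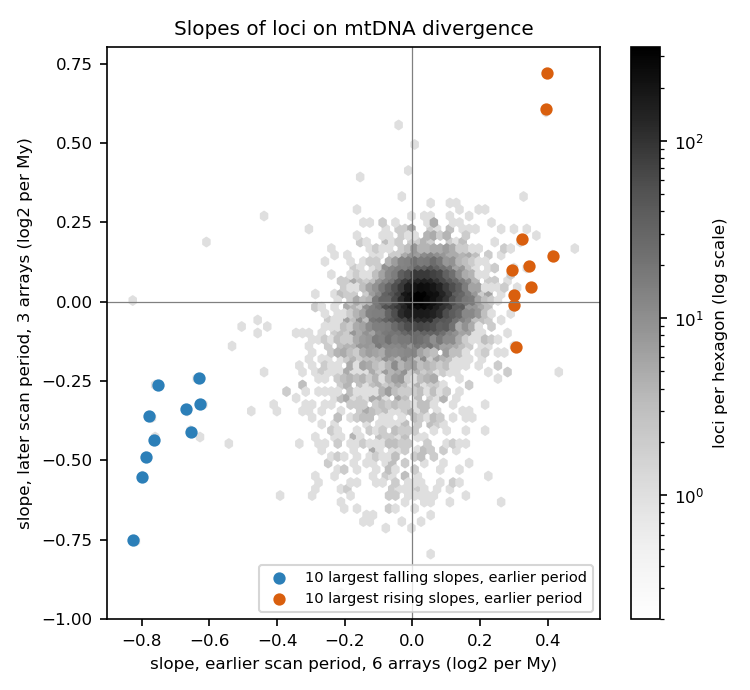
Slope of the mean log2 ratio of a locus on mtDNA divergence in the earlier scan period (6 arrays, x axis) and in the later one (3 arrays, y axis), both in log2 units per My, for 14580 loci shown as hexagons shaded by their number on a log scale. The 10 most negative earlier slopes (blue) all lie below 0 in the later period, and 8 of the 10 most positive ones (orange) lie above 0.

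The direction of slopes at an unadjusted p under 0.05 went with the mean log2 ratio of a probe. Probes were put into 5 groups of equal size by their mean log2 ratio over the 12 arrays. In the lowest group, 1942 had a positive and 243 a negative slope at an unadjusted p under 0.05 over the 12 arrays, against 405 and 1224 in the highest. Over the 9 arrays the counts were 1220 and 134 in the lowest group and 886 and 2087 in the highest. Positive slopes thus led among such probes of low ratio and negative slopes among those of high ratio. Over all probes of a group, the median slope was 0.08 in the lowest and −0.04 in the highest over the 12 arrays, but 0.05 and 0.01 over the 9, so in the highest group most slopes were not negative there. With arrays scaled to equal spread, positive slopes led in the highest group as well, with 2474 against 733 over the 12 arrays and 1450 against 764 over the 9. The balance in the highest group therefore turned with the scale. In the lowest group positive slopes still led, with 1283 against 743 over the 12 arrays and 1426 against 181 over the 9. Its median slope with this scaling was −0.0007 over the 12 arrays and 0.04 over the 9.

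The spread itself was measured as the SD of the log2 ratios over the probes of an array. The mean SD was 1.47 ± 0.81 for CC9 mus, 1.27 ± 0.14 for CC9 spretus, 1.19 ± 0.08 for CC9 dunni and then 1.14 ± 0.07 for CC9 pahari (SD, n = 3). The line means had a slope of −0.0485 per My, but the spread within CC9 mus was larger than the whole range of these means (exact permutation test over the 24 orders of the lines, two-sided, p = 0.0833, with 0.0417 the smallest p possible). Without CC9 mus replicate 2 the slope was −0.023 (exact permutation test, p = 0.0417), and without its replicate 3 it was −0.0123 (exact permutation test, p = 0.375). Without its replicate 1 it was −0.11 (exact permutation test, p = 0.167). With the MAD in place of the SD the slope was −0.0731 (exact permutation test, p = 0.292), and with the SD after normexp correction −0.0447 (exact permutation test, p = 0.25). In both, CC9 pahari had a larger spread than CC9 dunni. The part of the spread in the slopes of single probes was not tested beyond the scaling to equal spread.

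**Figure D3:**
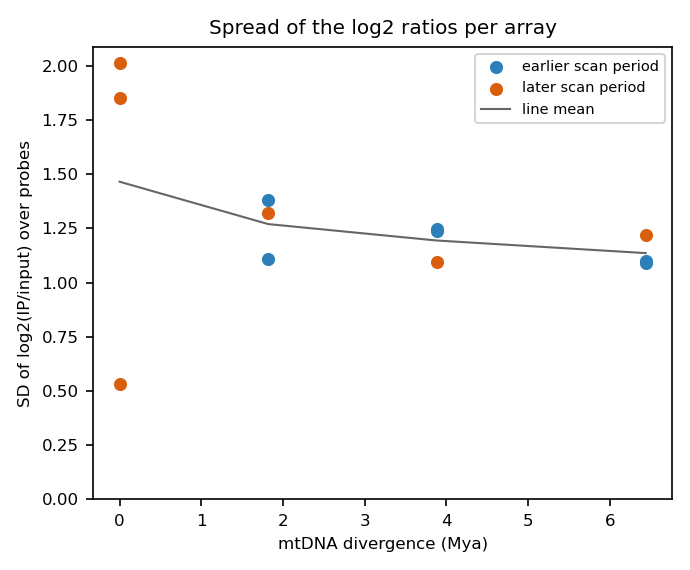
SD of the log2 ratios over the probes of each of the 12 arrays (points, coloured by scan period) against the mtDNA divergence of the line in Mya, with the line means (grey line). The 3 CC9 mus arrays at 0 Mya lie at 0.53, 1.85 and 2.01, outside the range of 1.09 to 1.38 of the other 9.

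Chromosomes 1, 8 and X stood apart over the 9 arrays. On chromosome 1, 8.41% of probes had a positive and 2.36% a negative slope at an unadjusted p under 0.05, and on chromosome X 8.09% and 2.31%. On chromosome 8 the balance was the opposite, with 3.09% and 7.76%. On the other autosomes together it was 4.47% and 4.55%. The median slope was 0.039 on chromosome 1, 0.030 on X and −0.003 on 8, against 0.014 on the other autosomes.

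The input signal of these chromosomes moved in the opposite direction to the ratio. Its slope over the 9 arrays was −0.039 on chromosome 1 and −0.035 on X, and 0.034 on chromosome 8, the 3 largest in size of all chromosomes. On chromosome 1 the input signal was 0.27 above its mean in CC9 spretus replicate 2 and at most 0.05 above it on the other arrays. Without that array, 7.26% of chromosome 1 probes had a positive and 3.85% a negative slope, against 4.95% and 5.75% on the other autosomes. On chromosome 8 the input signal was raised in all 3 CC9 pahari arrays, at 0.20, 0.21 and 0.30, lowered in all 3 CC9 dunni arrays, at −0.10, −0.11 and −0.16, and raised again in all 3 CC9 spretus arrays, at 0.06, 0.13 and 0.11. It thus did not follow the order of divergence. On chromosome X it was 0.23 in CC9 spretus replicate 1 and 0.18 in its replicate 2. It was −0.22 in CC9 dunni replicate 3 and −0.16 in CC9 pahari replicate 3. Without CC9 spretus replicate 2, 5.71% of chromosome X probes had a positive and 3.52% a negative slope. Without CC9 pahari replicate 1 the share of positive slopes was 4.21% on chromosome 1 and 4.90% on X, against 2.20% on the other autosomes. Without its replicate 3, chromosome 8 had 6.90% positive and 7.12% negative slopes, against 7.21% and 4.11% on the other autosomes. Centring on the median of each chromosome, a setting chosen after seeing the data, removes such shifts by construction. With it, 63 of the 67 loci still passed.

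**Figure D4:**
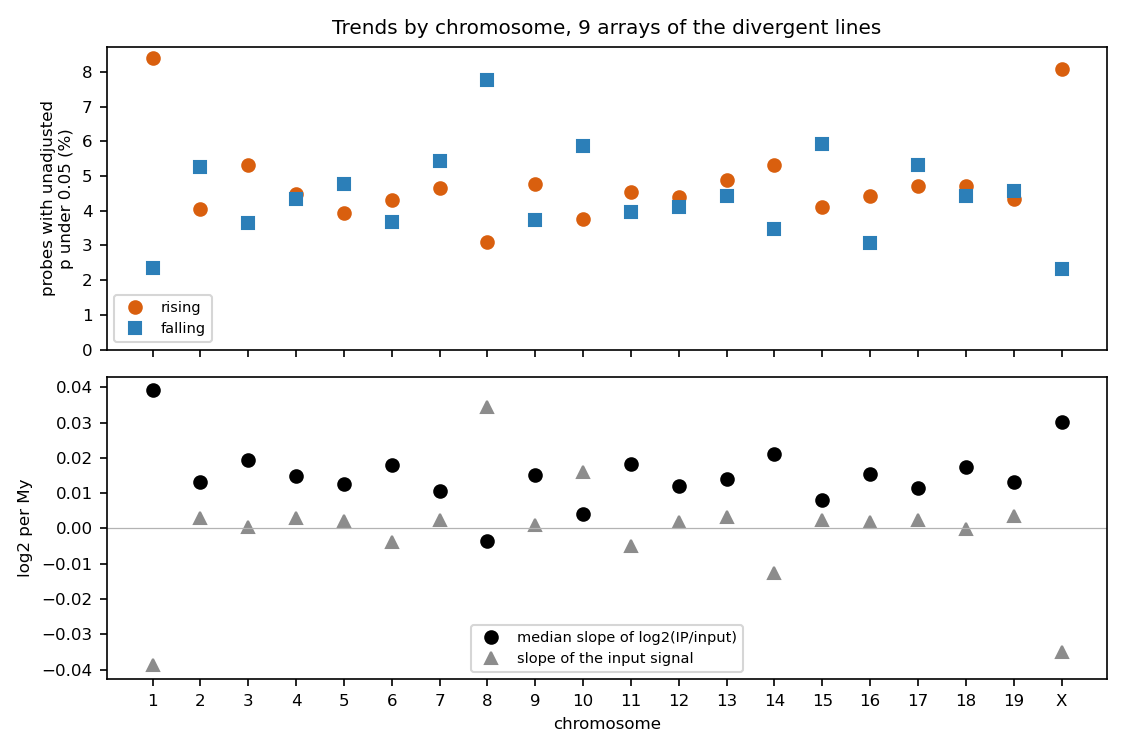
Trends by chromosome over the 9 arrays of the divergent lines. The upper panel gives the percentage of probes with a positive (orange circles) and a negative slope (blue squares) at an unadjusted p under 0.05, and the lower panel the median slope of the log2 ratio (black circles) and the slope of the input signal (grey triangles), in log2 units per My. Chromosomes 1 and X have the highest shares of positive slopes and chromosome 8 that of negative ones, and the input signal has slopes of the other sign there.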

How the data were processed

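DNA methylation was measured in 12 samples, 3 from each line, on Agilent 2-colour CpG island arrays. The authors deposited processed signals, which are intensities from Agilent Feature Extraction 11.0.1.1, after background subtraction and linear dye normalisation. The ratios that the authors deposited are log10 of IP over input, and the table of the whole series held the same values (largest difference 0).

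From the intensities, log2(IP/input) was computed for 88737 probes, leaving out 5950 control spots and 936 spots marked as outliers, and the median of each array was subtracted. Slopes on divergence time were fitted with lmFit and eBayes of limma 3.58.1 in R 4.3.3, with Benjamini-Hochberg adjustment over all probes or all loci and a threshold of 0.05. Residual degrees of freedom were 10 for the 12 arrays and 6 for the 9. The 3 arrays of a line share a divergence time, so p-values measure the spread of arrays about a straight line, not that between independent lines, of which there were 4. The fits were tested on simulated data.

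Named probes were 1 per locus, with 8 each way for the 12 arrays and 6 each way for the 9. The largest slopes past the threshold were to be named. Since none passed, those with the smallest p in each direction were taken, whatever the order of the line means. Further loci were chosen after their values were seen. The members and lists were chosen with earlier results of these data known. Positions are on mm9, as the files state. The annotation used here is on another build, and no table given names the gene of a probe. The gene lists prepared were therefore not analysed here. Alternatives were other centring, scaling, background correction (normexp, offset 50), filters, covariates, weights and blocks, and each array left out in turn. Python 3.11.15, pandas 2.3.3 and matplotlib 3.10.9 were used for tables and plots.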

Additional observations from a re-analysis of the deposited data

How the results depend on the processing

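Over the 12 arrays, 0 probes passed under most settings, but 2 did with the square root of divergence, 277 with array weights and 0 to 33 with each array left out in turn. Over the 9 arrays, 73 probes passed with normexp correction, 80 with input well above background and 269 with both channels well above background. With array weights 206 probes passed, and 0 with each array left out. With locus means in place of probes, 67 loci passed. Departure from a straight line passed at 3 probes with equal spread, 1758 with array weights and 0 to 4815 with each array left out. The loci past the threshold over the 9 arrays numbered 67, and, under settings chosen after seeing the data, 149 without centring, 38 with normexp correction, 0 with equal spread, 2 without the scan period block, 0 in the earlier period alone, 15 with slide as a random block, 194 with array weights and 0 to 91 with each array left out. Over the 12 arrays they numbered 0 to 3 with each array left out. The slope of the SD ran from −0.11 to −0.0123 with each array left out and was −0.023 without CC9 mus replicate 2. The causes of these changes were not tested. With the replicate number as a block, the counts were 0 probes over the 12 arrays, 0 over the 9, 0 departing from a straight line, 26 loci over the 9 arrays and 0 over the 12, and no named probe turned its sign. Arrays of the same number had correlated deviations from their line means in 12 of 18 pairs (r over 0.1, median 0.13, range −0.38 to 0.54). Arrays of other numbers did in 13 of 36 (median −0.11). Of the 12 arrays, 5 correlated best with their own number, and the labels pair no samples by number. Among the 9 arrays the number is tied to the scan period, since replicate 3 of each divergent line was scanned in the later one. Of the 27 named probes, 0 turned the sign of their slope under any setting.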
